A study of Mus musculus with 3 samples.

Results

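The keratins described here are the 9 epithelial keratin genes Krt5, Krt7, Krt8, Krt13, Krt14, Krt15, Krt18, Krt19 and Krt20. Their members were every probe set whose single gene symbol in the platform annotation was one of these names, which gave 15 probe sets of 45037 that are not array controls, for 9 of 18193 named genes. Kidney RNA of 3 C57BL/6 mice had been hybridised to single-colour arrays, 1 array per mouse. The control was 1 mouse, and 2 mice had drunk water with 200 mM acetate, a short-chain fatty acid, for 6 weeks. The age at the start was 3 weeks for all 3 mice, and all were housed conventionally. Sex, the age of the control mouse at sacrifice and the part of the kidney sampled were not given in the sources used here. The comparison asks how the kidney's keratin transcripts differed after prolonged oral acetate.

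Keratins are the intermediate filament proteins of epithelial cells, and a filament is built from pairs of an acidic type I and a basic type II chain. Krt8 with Krt18 is the pair of simple, single-layered epithelia, joined in ducts by Krt7 and Krt19. Krt5 with Krt14 or Krt15 marks the basal cells of layered epithelia, while Krt13 belongs to intermediate and suprabasal layers and Krt20 to the umbrella cells at the surface of the urothelium, the lining of the renal pelvis and urinary tract. In the healthy kidney, simple keratins are known mainly from collecting ducts and other distal segments, and Krt8, Krt18, Krt19 and Krt20 are known to increase in injured tubules.

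Promoter sequence from RefSeq (build GRCm38.p6) was found for 7 of the 9 genes, with an entry at the outermost start of the gene for 6; the Krt14 entry starts inside the gene, and Krt15 and Krt19 had no entry. The 6 are shown because they hold both the Krt8 and Krt18 pair and keratins with very different measured values. Each line gives 60 bases before the annotated start and 20 from the start on, 5′ to 3′ on the gene's own strand. Capitals mark any match, on either strand, to TATAAA (the TATA box), ATAAAAGG, TGANTCA (an AP-1 site) or GGGCGG (a GC box). The windows are chr15:102004323-102004402 on the minus strand for Krt8, chr15:102028156-102028235 on the plus strand for Krt18, chr15:101412343-101412422 on the plus strand for Krt7, chr15:101712886-101712965 on the minus strand for Krt5, chr11:100121547-100121626 on the minus strand for Krt13 and chr11:99438134-99438213 on the minus strand for Krt20.
Krt8: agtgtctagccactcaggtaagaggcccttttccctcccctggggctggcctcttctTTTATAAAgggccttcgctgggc
Krt18: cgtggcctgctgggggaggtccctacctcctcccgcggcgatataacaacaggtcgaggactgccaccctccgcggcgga
Krt7: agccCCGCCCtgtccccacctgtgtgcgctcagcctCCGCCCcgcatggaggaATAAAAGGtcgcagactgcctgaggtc
Krt5: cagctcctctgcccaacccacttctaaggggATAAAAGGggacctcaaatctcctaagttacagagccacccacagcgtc
Krt13: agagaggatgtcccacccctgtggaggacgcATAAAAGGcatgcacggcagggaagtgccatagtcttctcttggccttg
Krt20: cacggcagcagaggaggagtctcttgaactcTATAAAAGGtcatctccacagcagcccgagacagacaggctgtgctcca

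The letters ATAAAAGG, picked after the sequences were seen, stood between 50 bases before the start and the start in 4 of the 6 genes, Krt5, Krt7, Krt13 and Krt20, with the first base at -29, -7, -29 and -28. In the same stretch, on the gene's strand, 0.514% of 32851 RefSeq promoter windows hold them. TATAAA was found there in Krt8, with its first base at -1, and in Krt20, where it overlaps ATAAAAGG, against 2.76% of all windows. Neither these letters nor an AP-1 site or GC box was found in the 300-base window of Krt18. An AP-1 site was found in the Krt13 window with its first base at -196, and 7.81% of all windows hold one. A second Krt13 entry, not at the outermost start and not printed here, held AP-1 sites at -183 and -34 from its own start. A GC box was found 4 times in the Krt7 window, and 35.7% of all windows hold at least 1. These matches are letters in a sequence and were not tested as sites.

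All values below are the authors' deposited log2 values, so a difference of 1 is a 2-fold change; where a mean of the acetate-fed group is printed it carries the SD over its 2 mice, while the 1 control array has no error of its own. The labels do not say whether the mice shared a cage or litter. Array medians were close, from 4.91 to 4.94, and 44.9% of all probe sets had exactly the same value on both acetate-fed arrays. On the control array, 62.5% of probe sets had a value that at least 1 other probe set also had, digit for digit, and this share was 76.9% among values below 4. The number of other probe sets with exactly the same value is therefore given for many keratin values. Where no number is printed, a value may still be shared. The limma test (adjusted p below 0.05 over 27022 probe sets whose mean reached 4.21) takes its only residual degree of freedom from the acetate-fed pair and assumes that the control varies like that pair. Of its 2846 calls, 92.3% were exactly tied pairs, against 33.7% of all probe sets tested.

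Keratins of simple and of basal type stood above the control in each of the acetate-fed kidneys. Of the 9 genes, 7 were higher in both mice, none was lower in both, Krt20 was higher in mouse 1 and equal to the control in mouse 2, and the leading probe set of Krt13 had 1 value on all 3 arrays. Among all 13473 genes tested, 26% were higher in both mice and 30.9% lower. The genes tested include many with exactly the control value in a mouse, which can be in neither group. Of the 8 keratins tested only Krt20 had such a value, so the shares are not like for like. Krt15 alone was at least 2-fold higher in both mice, against 0.408% of genes tested, and no keratin was 2-fold lower, against 0.46%. Krt18 was the 1 keratin whose leading probe set, that with the highest mean, passed limma, as higher, against 3.97% of genes tested; none passed as lower, against 4.92%. The 8 genes tested all had a control value above 4.21, so none was tested only because it was high in the acetate-fed mice.

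**Figure D1:**
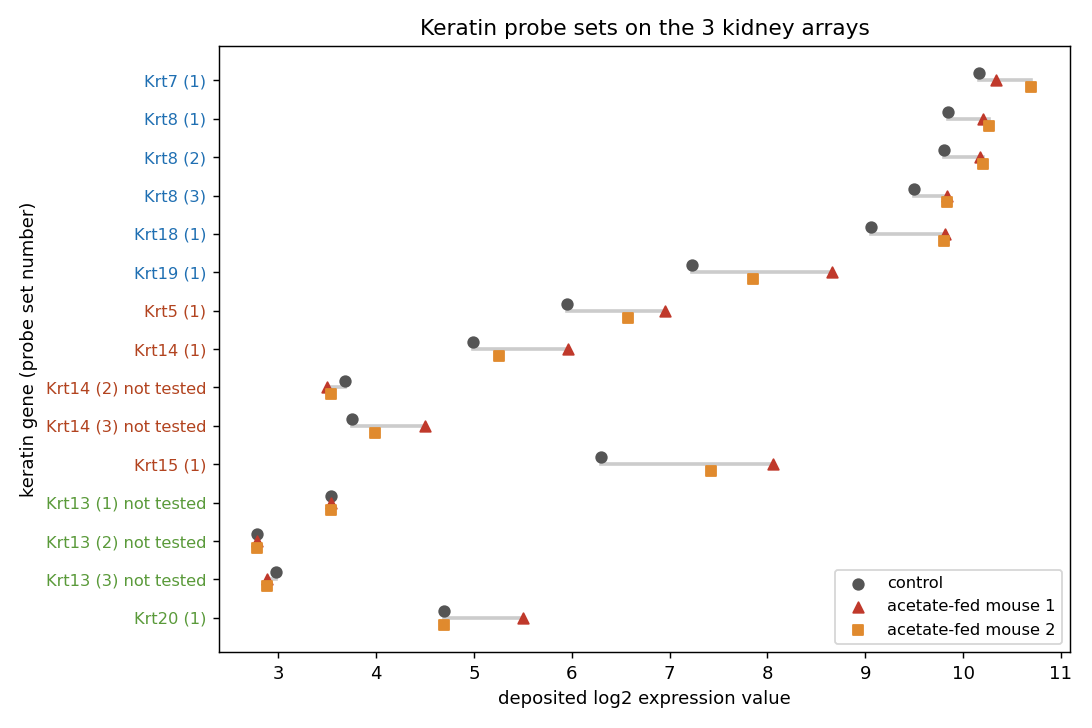
Deposited log2 expression value (x axis) of each of the 15 keratin probe sets (y axis, numbered within each gene) on the control array (circles), acetate-fed mouse 1 (triangles) and acetate-fed mouse 2 (squares), with a grey line over their range; label colours mark simple (blue), basal (red) and urothelial or suprabasal (green) keratins. The control is lowest for Krt7, Krt8, Krt18, Krt19, Krt5 and Krt15, and the Krt13 probe sets lie between 2.79 and 3.54 with almost no spread.

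The simple pair Krt8 and Krt18 stood at nearly the same distance from the control in both acetate-fed mice. Krt18 (probe set 1448169_at), the type I chain of simple epithelia, was 9.06 in the control kidney, 9.81 in mouse 1 and 9.80 in mouse 2. Both acetate-fed values lie above the control and within 0.01 of each other. Krt18 rose 1.68-fold, from 9.06 to 9.81 ± 0.01 (log2 difference 0.75, SE 0.01, limma adjusted p = 0.018). The call was lost after median centring (limma adjusted p = 0.11), after quantile normalization (limma adjusted p = 0.24) and in the upper 40% of probe sets (limma adjusted p = 0.056). The difference itself stayed between 0.73 and 0.78 under both rescalings. Of 13473 genes tested, 137 (1.02%) were above the control in both mice by at least 0.75, the smaller of the 2 Krt18 differences.

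Krt8, the type II partner of Krt18 and its neighbour on chromosome 15 in the RefSeq gene order, was measured by 3 probe sets with like differences. By its leading probe set it read 9.85 in the control kidney, 10.21 in mouse 1 and 10.27 in mouse 2, which is 1.28-fold and 1.34-fold higher. It did not pass limma (log2 difference 0.39, SE 0.05, limma adjusted p = 0.22). The second was 9.81, 10.17 and 10.21 in the same order. The third was 9.50 in the control and exactly 9.84 in both mice, and passed limma as higher by 0.34 (limma adjusted p = 0.023), a call that rests on an exact tie. With that one, 2 of 10 keratin probe sets tested passed limma as higher, against 5.18% of all probe sets. On each acetate-fed array the log2 difference of Krt18 was above that of any Krt8 probe set, and the size of this gap has no test here.

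Krt7, a type II keratin of ducts, had the smallest mean difference among the simple keratins and was further from the control in mouse 2. It was 10.16 in the control kidney, 10.34 in mouse 1 and 10.70 in mouse 2, or 1.13-fold and 1.45-fold higher. The gap between the mice was about as large as the mean difference (log2 difference 0.36, limma adjusted p = 0.79). Krt19, the type I chain without a tail domain that is found in ducts and urothelium, showed the opposite order between the mice. It was 7.23 in the control kidney, 8.66 in mouse 1 and 7.85 in mouse 2, or 2.70-fold and 1.54-fold higher. Both values lie above the control, but the acetate-fed mice differed from each other by 0.81, and the mean difference of 1.03 did not pass limma (SE 0.60, adjusted p = 0.69). The Krt19 values of the control and mouse 2 were shared, digit for digit, with 24 and 18 other probe sets.

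The basal keratins were higher in both mice as well, and all 3 were further from the control in mouse 1. Krt15 (probe set 1422667_at), a type I basal keratin, had the largest difference of any keratin measured. It was 6.30 in the control kidney, 8.06 in mouse 1 and 7.43 in mouse 2, or 3.40-fold and 2.19-fold higher. The mouse 1 value of Krt15 was shared with 7 other probe sets, and those of the control and mouse 2 with none. Of 13473 genes tested, 33 (0.245%) were above the control in both mice by at least 1.13, the smaller of the 2 Krt15 differences. The mean of 7.74 ± 0.45 gave a log2 difference of 1.45, which did not pass limma (SE 0.47, adjusted p = 0.47); the fit takes its error from the gap between the mice. Krt15 lies between Krt13 and Krt19 in the RefSeq gene order on chromosome 11, so the pair of keratins with the largest mean differences are direct neighbours, while the leading probe set of Krt13, on the other side of Krt15, had the same value on all arrays.

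Krt5, the type II chain that pairs with Krt14 and Krt15 in basal cells, was 5.95 in the control kidney, 6.95 in mouse 1 and 6.58 in mouse 2. It was thus 2.00-fold higher in mouse 1, just at the 2-fold threshold, and 1.54-fold higher in mouse 2 (log2 difference 0.81, limma adjusted p = 0.49). The control value of Krt5 was shared with 77 other probe sets and the value of mouse 2 with 38, while that of mouse 1 was its own.

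Krt14, the basal type I chain, was measured by 3 probe sets that disagreed. The leading one was 4.99 in the control kidney, 5.96 in mouse 1 and 5.26 in mouse 2, or 1.97-fold and 1.21-fold higher (log2 difference 0.62, limma adjusted p = 0.84). A second (1460347_at) had the same order, at 3.76, 4.50 and 3.98, but its value in mouse 1 was shared with 284 other probe sets. The third (1455573_at) went the other way, with 3.68 in the control kidney, 3.49 in mouse 1 (shared with 204 others) and 3.54 in mouse 2. These last 2 were below the minimum for testing. The control value of the leading Krt14 probe set was shared with 156 other probe sets. A further probe set, assigned to both Krt17 and Krt14 and so not counted as a member, was 3.68 in the control and exactly 0.33 higher in both mice.

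The keratins of the intermediate and surface urothelium showed no shared difference. Krt20, the umbrella cell keratin, was 4.70 in the control kidney, 5.50 in mouse 1 and exactly the control value in mouse 2. That value was shared with 210 other probe sets on the control array and 203 on the array of mouse 2, while mouse 1 alone had a value of its own, 1.75-fold above it (limma adjusted p = 0.87). Krt13 did not reach the minimum for testing with any of its 3 probe sets. The first was 3.54 on all 3 arrays, a value held by 492 other probe sets on the control array, and the second was 2.79 on all 3, held by 226 others. The third was 2.97 in the control and exactly 2.88 in both mice, values shared with 372 and 411 others on those arrays. With no filter on low values, this tied probe set passed limma as lower by 0.09 (adjusted p = 0.0012), while the other 2 showed no difference.

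**Figure D2:**
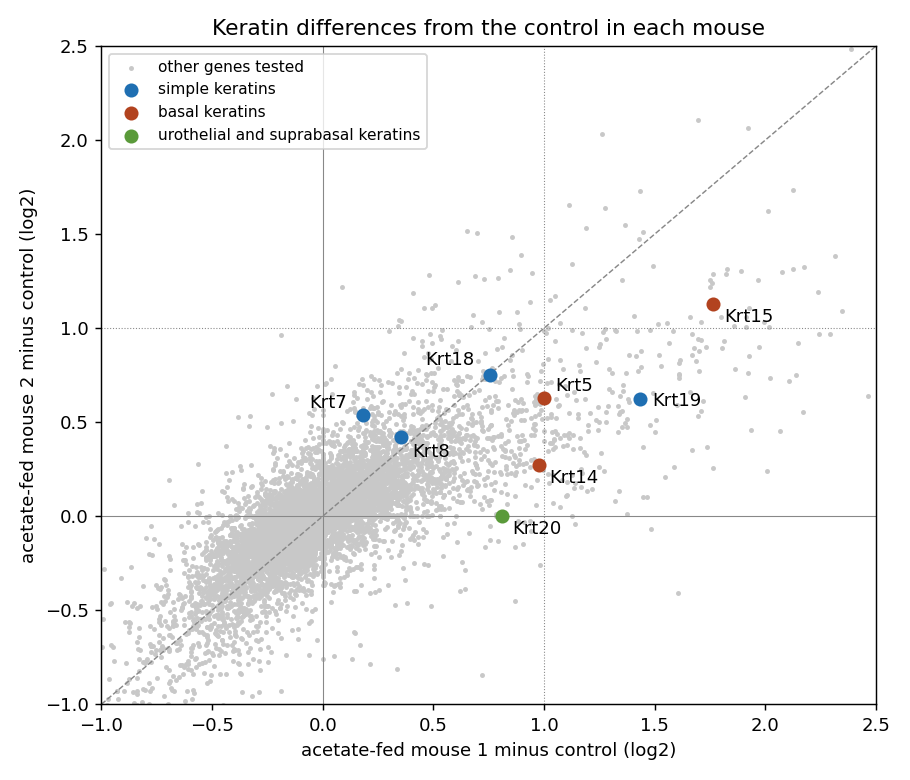
Log2 difference from the control in acetate-fed mouse 1 (x axis) and mouse 2 (y axis) for the 8 keratin genes tested (coloured by class) and all other genes tested (grey); the dashed line marks equal differences and the dotted lines 2-fold, and 136 genes lie outside the drawn range. Krt18 lies on the dashed line, Krt7 and Krt8 above it, and Krt5, Krt14, Krt15, Krt19 and Krt20 below it, towards mouse 1; both differences share the 1 control array.

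Set side by side, the simple and basal keratins had like medians in mouse 2 and a wider gap in mouse 1. The 4 simple keratins had median log2 differences of 0.56 (mouse 1) and 0.58 (mouse 2). The 3 basal keratins had medians of 1.00 and 0.63. Krt20, the only urothelial or suprabasal keratin tested, stood at 0.81 and 0.00, and the median over all genes tested was 0.00 in each mouse. In all, 6 of the 8 keratins tested were further from the control in mouse 1 than in mouse 2, and 2, Krt7 and Krt8, were further in mouse 2. Of all genes tested, 41.7% were further in mouse 1. That share also counts genes tied on the acetate-fed arrays, which can be further in neither mouse. Ties made up 33.7% of probe sets tested but none of the 8 leading keratin probe sets, so the shares are not like for like. In mouse 1 alone 3 keratins, Krt5, Krt15 and Krt19, were at least 2-fold higher, against 1.77% of genes tested, and in mouse 2 alone 1, Krt15, against 0.601%. With a threshold of 1.5-fold in both mice, 4 keratins (Krt5, Krt15, Krt18 and Krt19) were higher, against 1.75%. The classes were not tested against each other.

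The limma result depended on the tied pairs. When probe sets with exact ties were dropped before fitting, 6 keratin genes passed as higher, against 6.14% of the genes left: Krt15 (limma adjusted p = 1.09e-06), Krt18 (9.66e-05), Krt19 (0.00039), Krt5 (0.00093), Krt8 (0.037) and Krt14 (0.038). Krt7 (limma adjusted p = 0.088) and Krt20 (0.28) did not pass. That fit took 26.6 prior degrees of freedom from all probe sets against 1 from the acetate-fed pair. Its error for a gene thus comes mostly from probe sets of like mean value, and less from how well the mice matched. The order did not follow the mean difference alone: Krt18 (0.75) came before Krt19 (1.03), and Krt8 (0.39) before Krt14 (0.62).

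Of 39 further keratin genes, 20 were tested; of these, 7 were higher and 1 lower in both mice, and none was at least 2-fold from the control in both. Of the 19 below the minimum for testing, 0 were higher and 7 lower in both mice, and the mean difference of largest size was -0.28, for Krt25. The 20 tested had medians of 0.00 (mouse 1) and 0.01 (mouse 2) and a largest mean difference of 0.22. By limma 3 passed as higher, Krt42 (0.22, adjusted p = 0.020), Krt84 (0.05, adjusted p = 0.016) and Krt88 (0.04, adjusted p = 0.021), and Krt4 passed as lower (-0.06, adjusted p = 0.011). All 4 were exact ties between the acetate-fed arrays. Krt6a, a keratin of wounded skin, was 1.10-fold and 1.12-fold higher without passing limma (adjusted p = 0.29). The Krt6a control value was shared with 58 other probe sets. Krt16, the partner of Krt6a, was 3.45 on all 3 arrays, below the minimum for testing. Krt17, which is known from basal and injured layered epithelia, was below the minimum for testing, at 3.21, 3.29 and 3.21.

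Transcripts of proteins that anchor keratin filaments were mixed in direction. Of 18 listed genes of desmosomes, hemidesmosomes and linkers, 15 were tested, 5 were higher and 4 lower in both mice, and their medians were 0.00 in each. By limma 2 passed as higher and 0 as lower: Eppk1, epiplakin, by 0.12 (adjusted p = 0.011) and Itgb4, the hemidesmosomal integrin beta-4 chain, by 0.08 (adjusted p = 0.023), each with exactly tied acetate-fed values. The control value of Itgb4 was shared with 58 other probe sets, that of Eppk1 with none. Plec, plectin, a linker of filaments to junctions, was 8.37 in the control kidney, 9.08 in mouse 1 and 8.92 in mouse 2 (limma adjusted p = 0.32). Dsp, desmoplakin, which ties keratin filaments to desmosomes, was 7.54, 8.11 and 8.02 (limma adjusted p = 0.22). Itga6, the partner of Itgb4, was lower, at 10.54, 10.02 and 9.88 (limma adjusted p = 0.30). Ppl, periplakin, differed about as much as Dsp, at 6.38, 6.92 and 6.84 (limma adjusted p = 0.21). Its control value was shared with 56 other probe sets. Other desmosomal genes of the list differed less. Jup and Pkp3 had the same value on all 3 arrays, and Pkp2 was lower by 0.18 in mouse 1 and 0.22 in mouse 2.

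Markers of the cell types that carry these keratins did not share one direction. In whole tissue, more cells of a type and more RNA per cell cannot be told apart. Of 9 urothelial genes other than keratins that were tested, 2 were higher and 2 lower in both mice, 0 passed limma, and the median was 0.00 in each mouse. The epithelial transcription factor gene Elf3 was 8.21, 8.69 and 8.48 in control, mouse 1 and mouse 2, and Sfn, stratifin, was 6.41, 6.82 and 6.62. Upk3a, a uroplakin of the umbrella cell surface, was lower, at 6.60, 6.33 and 6.14. Trp63, the transcription factor that defines basal cells, was 3.61 on all 3 arrays, a value held by 440 other probe sets. The mean level of the 12 urothelial genes with a probe set was 5.98 in the control kidney, 6.04 in mouse 1 and 5.99 in mouse 2.

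Collecting duct genes had higher values in mouse 2 than in mouse 1. The 9 tested had medians of -0.08 (mouse 1) and 0.36 (mouse 2), 3 of them were higher in both mice, and 0 passed limma. The 3 were water channel genes, and the other 6 were below the control in mouse 1 and above it in mouse 2. Aqp2, the vasopressin-regulated water channel of the principal cell, was 11.43 in the control kidney, 11.93 in mouse 1 and 12.55 in mouse 2. Aqp4 was 8.45, 9.04 and 9.36, and Aqp3 9.95, 10.13 and 10.65. Of 10 proximal tubule genes 8 were lower and 2 higher in both mice, 0 passed limma, and the organic anion transporter gene Slc22a6 was 11.27, 10.25 and 10.05. Slc22a8, of the same family, was 12.69, 12.07 and 11.76, and the endocytic receptor gene Cubn 11.98, 11.59 and 11.40. Their medians were -0.12 in mouse 1 and -0.23 in mouse 2.

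Tubular injury genes had a higher median in mouse 1 than in mouse 2. The 9 tested had medians of 1.43 (mouse 1) and 0.59 (mouse 2), 7 were higher in both mice, and 1 passed limma; Sox9 was equal to the control and Cldn1 below it in mouse 2. Lcn2, the injury marker NGAL, was 6.36 in the control kidney, 10.44 in mouse 1 and 8.67 in mouse 2. Havcr1, which encodes KIM-1 of injured proximal tubules, was 4.93, 8.61 and 5.58, and the hyaluronan receptor gene Cd44 4.35, 7.12 and 5.21. The control value of Havcr1 was shared with 109 other probe sets. Cdkn1a, the cell-cycle inhibitor p21, rose 2.73-fold (8.17, 9.59 and 9.64, limma adjusted p = 0.044), a gene for which, as for Krt18, both mice stood close together. Vim, the intermediate filament of mesenchymal cells, which dedifferentiated tubule cells also make, was 9.05, 10.34 and 9.63. This list was drawn up with earlier results of these arrays known and is no independent evidence of its direction. Whether the keratin differences lie in the same cells as these was not tested.

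Genes of other tissues in or around the kidney differed between the arrays too. All 5 adipose genes tested were lower in both mice, with medians of -3.06 and -3.33, 4 of them at least 2-fold and 1, Adig, past limma (adjusted p = 0.021). Adipoq, the adipocyte hormone adiponectin, was 9.98 in the control kidney, 4.38 in mouse 1 and 3.87 in mouse 2. The mean level of the 6 adipose genes with a probe set was 7.72, 5.06 and 4.91 in the same order. Retn was 9.26, 6.20 and 5.93, and Cidec was 6.49, 3.32 and 3.12. Adig and Cidec were below 4.21 in both acetate-fed mice and were tested only through their control values. Smooth muscle genes had medians of 0.59 in mouse 1 and -0.01 in mouse 2, with Tagln at 9.34, 10.54 and 9.48, Acta2 at 9.84, 10.97 and 10.06, Myh11 at 6.21, 6.40 and 6.31. These 3 of the 6 were higher in both mice, the other 3 (Actg2, Cnn1 and Des) were above the control in mouse 1 and below it in mouse 2, and 0 passed limma. Mesothelial genes, whose cells also make simple keratins, had medians of 0.00 and -0.06 over 3 genes tested, with 0 past limma, and their defining marker Msln was 4.31, 4.50 and 4.19 and Upk3b 6.78, 6.55 and 6.73. Genes of cornified epidermis had medians of 0.12 and 0.08 over 5 genes, with 0 past limma. Ivl, involucrin, was 3.96, 5.06 and 4.07, and Lor, loricrin, was 5.92, 6.04 and 6.09. Ivl was below 4.21 in the control and mouse 2, so it was tested only because it was high in mouse 1. Sprr1a of that list was 8.25, 8.58 and 7.44, above the control in mouse 1 and below it in mouse 2, and Krt10 was 7.61, 7.55 and 7.69. The part of these tissues in the keratin values was not tested.

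**Figure D3:**
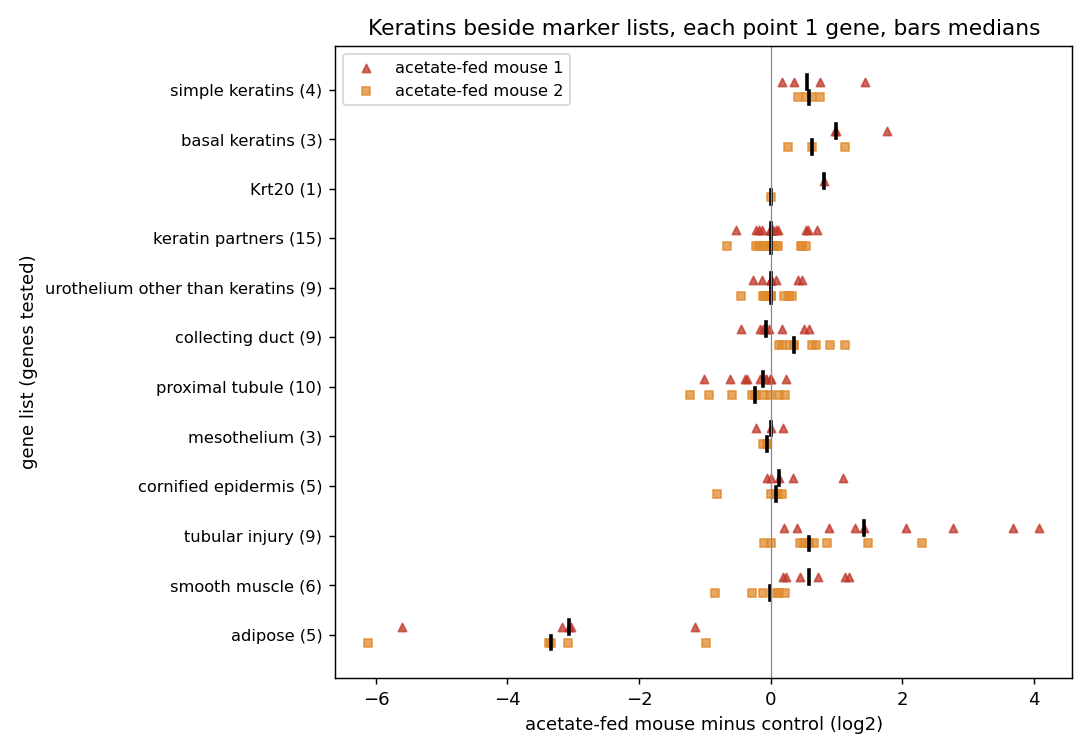
Log2 difference from the control (x axis) of each gene tested in mouse 1 (triangles) and mouse 2 (squares), for the keratin classes and the marker lists (y axis, number of genes tested in parentheses); black bars are medians. Tubular injury genes extend furthest to the right in mouse 1, collecting duct genes lie to the right in mouse 2, and adipose genes lie far to the left in both.

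Across the 3 arrays, the 2 genes whose pair of differences lay closest to that of Krt15 were Ms4a6d, at 1.80 in mouse 1 and 1.06 in mouse 2, and H2-Ab1, at 1.75 and 1.22, against 1.76 and 1.13 for Krt15. Their distances to Krt15 in log2 units were 0.08 and 0.09. The control value of Ms4a6d was 3.69, below 4.21, so it was tested only through its acetate-fed values. Ms4a6d is expressed by macrophages, and H2-Ab1 encodes a chain of MHC class II. This likeness rests on 3 arrays with a shared control and is a description only.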

How the data were processed

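Kidney RNA of 1 control and 2 acetate-fed mice was measured on 1 biotin-labelled array each. The authors deposited log2 expression values; the submitters' processing notes name MAS5, but the role of MAS5, the summary over probes, any background step and any filter were not given in the sources used here. No scanner file was used, so no detection call was available here, and precision is limited by having 3 arrays. Probe sets were named by the platform annotation and checked through the Entrez identifier: 34945 had 1 symbol, 932 several and 9160 none listed; 64 array controls were left out. The upper 60% of probe sets by mean over the 3 arrays were tested with limma 3.58.1 (R 4.3.3; lmFit, eBayes with trend), acetate against control, with Benjamini-Hochberg adjustment over all 27022. The fit was tried on 20 simulated tables with normally distributed noise. These hold no exact ties, so they cannot show how the fit behaves on the tied pairs that make up most of its calls here. A gene was represented by its probe set of highest mean; the rule of at least 2-fold in both mice used no test. Tables and plots used Python 3.11.15, pandas 2.3.3 and matplotlib 3.10.9.

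The members, classes and 9 marker lists were chosen with earlier results of these data known. Named were all members, genes past limma and up to 3 per list with the largest change of 1 direction, other keratins past limma or 2-fold in both mice, and the 2 genes nearest to each keratin that was 2-fold in both mice. Krt6a, Krt10, Krt16, Krt17, Krt25, Trp63, Jup, Pkp2, Pkp3, Ppl, Vim, Sox9, Cldn1, Msln, Sprr1a, Actg2, Cnn1 and Des were added after their values were seen. So were Upk1a, Upk1b, Upk2, Gata3, Psca and Fgfbp1. Alternatives were quantile normalization, median centring, the mean of a gene's probe sets, no filter or the upper 40%, no trend, no tied pairs, 1.5-fold, and each acetate-fed mouse left out.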

Additional observations from a re-analysis of the deposited data

How the results depend on the processing

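The count of keratins at least 2-fold from the control in both mice was 1 as reported, ranged from 1 to 3 with either acetate-fed mouse left out (3 without mouse 2, adding Krt5 and Krt19), and was 4 at 1.5-fold; it stayed at 1 under the other 6 alternatives, 1 of which, leaving out tied pairs, was added after seeing the data. The count past limma was 1 as reported, with no filter and with no trend, 0 after quantile normalization, after median centring, with the mean of a gene's probe sets and in the upper 40% of probe sets, and 6 without tied pairs. Over all probe sets (genes, for the mean of probe sets) those 4 settings gave limma 0 calls (4303, 4959, 1998 and 3513 had an unadjusted p under 0.05), no filter gave 6523 and no tied pairs 2064, against 2846. The simple keratins' median of 0.57 became 0.59 after quantile normalization and 0.55 after median centring. The basal median of 0.81 became 1.13 with the mean of a gene's probe sets, where Krt14 fell below the filter. With a mouse left out the medians ranged from 0.56 to 0.58 for the simple, 0.63 to 1.00 for the basal and 0.00 to 0.81 for the urothelial class. The direction of 3 list medians turned: collecting duct without mouse 2 (-0.077; 0.36 without mouse 1), smooth muscle without mouse 1 (-0.0072; 0.59 without mouse 2) and cornified epidermis after median centring (-0.013). Of 39 single-gene values under alternatives, 37 stayed within 1 SD, and Krt18 moved to 0.78 and 0.73. The SD is that of the 2 acetate-fed mice, so a value with 1 mouse left out cannot move further than it. Those values could not fail this rule, which is strictest for genes whose mice matched, such as Krt18 (SD 0.01). Median centring shifted arrays by at most 0.02. Tests with a mouse left out have no residual degree of freedom and were not run. No paired analysis was possible because there was 1 control and no label links it to an acetate-fed mouse.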
